A study of Mus musculus with 4 samples.

Results

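Type I interferon-stimulated genes were followed in mouse synovial macrophages and monocytes during serum-transfer arthritis. The set held 39 genes, chosen by name as genes that cells switch on after type I interferon, with earlier results of these data known. Counts of members beside the share of all genes are therefore a description and no test. Of the 39 genes, 37 were listed in at least 1 of 4 libraries, among 13036 genes listed in any. Ifi44 and Mx2 were listed in none, and Ifit2 and Oas3 were not listed at day 0. Genes seen in fewer than 5 barcodes of a library are left out of its table, and a gene that is left out has no value there, which is not the same as 0. The libraries were made with the 10x Chromium 3′ kit, version 2, which counts transcripts per cell as unique molecular identifiers (UMIs) under 1 cell barcode. CD45+CD11b+Ly6G- cells were sorted from the hind paws of Cx3cr1creER:tdTomato mice, and 1 library was made at each of 4 times: steady state (day 0) and days 1, 2 and 5 after injection of K/BxN serum, which carries arthritis-inducing antibodies. All groups, day 0 included, had been given tamoxifen 4 weeks before; Cre in this line is driven by Cx3cr1, so tdTomato marks cells that expressed this fractalkine receptor at the pulse, and their descendants. The number of mice behind each library is not given, and with 1 library per day a difference between days has no replicate check. No p-value is therefore given, and every 95% interval below (exact Poisson or Clopper-Pearson) covers counting error only.

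Type I interferons bind the Ifnar1 and Ifnar2 receptor chains, and the kinases Jak1 and Tyk2 then activate Stat2, which acts with Irf9 in a complex that binds the interferon-stimulated response element in gene promoters. The genes it turns on encode nucleic acid sensors, antiviral effectors, ubiquitin-like modifiers and regulators of the pathway itself, and macrophages and monocytes are among the cells that carry both receptor chains and respond.

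The promoters of members that the results below turn on are shown first, so that the response element letters can be read beside the expression values. They are RefSeq windows of 300 bases on build GRCm38.p6, from 250 bases before the annotated start to 50 after it, written 5′ to 3′ on the gene's strand. Capitals mark the response element letters, searched as GAAA, any 2 bases and GAAA again, on both strands and with overlaps allowed. The windows are Ifit1 at chr19:34640639-34640938 (plus strand), Ifit3 at chr19:34583279-34583578 (plus), Ifit3b at chr19:34607707-34608006 (plus), Isg15 at chr4:156200769-156201068 (minus), Rsad2 at chr12:26456403-26456702 (minus), Bst2 at chr8:71537423-71537722 (minus) and Irf7 at chr7:141266375-141266674 (minus).
Ifit1: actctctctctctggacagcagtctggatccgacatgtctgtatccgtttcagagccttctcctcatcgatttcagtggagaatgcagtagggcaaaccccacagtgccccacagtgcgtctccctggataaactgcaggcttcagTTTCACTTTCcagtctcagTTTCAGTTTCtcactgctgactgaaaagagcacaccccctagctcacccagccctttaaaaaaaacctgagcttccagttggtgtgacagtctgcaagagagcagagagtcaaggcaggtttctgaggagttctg
Ifit3: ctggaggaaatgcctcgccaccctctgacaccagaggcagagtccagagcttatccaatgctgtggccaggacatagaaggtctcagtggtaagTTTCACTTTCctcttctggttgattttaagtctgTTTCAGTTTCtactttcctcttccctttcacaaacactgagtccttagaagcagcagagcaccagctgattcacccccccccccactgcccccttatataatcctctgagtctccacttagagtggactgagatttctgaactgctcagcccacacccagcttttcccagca
Ifit3b: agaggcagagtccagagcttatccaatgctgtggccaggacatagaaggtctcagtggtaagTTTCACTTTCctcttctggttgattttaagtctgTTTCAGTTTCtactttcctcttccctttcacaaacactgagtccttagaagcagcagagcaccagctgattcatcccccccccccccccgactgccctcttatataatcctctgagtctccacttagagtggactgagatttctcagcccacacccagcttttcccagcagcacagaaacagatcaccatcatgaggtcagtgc
Isg15: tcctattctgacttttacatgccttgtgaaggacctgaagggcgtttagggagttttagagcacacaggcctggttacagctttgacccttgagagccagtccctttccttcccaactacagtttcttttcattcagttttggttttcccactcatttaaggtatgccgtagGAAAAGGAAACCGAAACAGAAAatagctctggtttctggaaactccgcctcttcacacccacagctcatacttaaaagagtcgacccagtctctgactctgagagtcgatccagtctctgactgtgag
Rsad2: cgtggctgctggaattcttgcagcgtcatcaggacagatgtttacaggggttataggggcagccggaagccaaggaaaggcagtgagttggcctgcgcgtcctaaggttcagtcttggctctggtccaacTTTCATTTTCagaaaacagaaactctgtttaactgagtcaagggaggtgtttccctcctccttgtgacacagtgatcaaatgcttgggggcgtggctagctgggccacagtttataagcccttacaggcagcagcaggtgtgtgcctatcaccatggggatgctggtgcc
Bst2: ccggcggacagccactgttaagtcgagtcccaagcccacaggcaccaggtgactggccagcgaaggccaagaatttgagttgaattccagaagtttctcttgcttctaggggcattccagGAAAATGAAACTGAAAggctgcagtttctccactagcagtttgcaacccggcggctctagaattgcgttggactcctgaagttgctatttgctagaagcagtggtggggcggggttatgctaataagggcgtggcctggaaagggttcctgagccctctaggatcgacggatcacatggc
Irf7: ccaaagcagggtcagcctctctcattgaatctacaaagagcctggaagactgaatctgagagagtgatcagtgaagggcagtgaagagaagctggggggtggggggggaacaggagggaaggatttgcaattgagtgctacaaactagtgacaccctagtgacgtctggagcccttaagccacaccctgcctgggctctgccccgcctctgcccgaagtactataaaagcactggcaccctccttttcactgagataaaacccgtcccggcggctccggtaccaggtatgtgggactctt

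A window was matched by symbol for 30 of the 39 members, and 13 of the 30 (43.3%) held this motif, against 4.00% of 26742 genes with such a window. The shorter letters TTCNNNGAA, a STAT-type motif, were in the windows of 5 of the 30 members (16.7%) and of 9.60% of all genes. Ifit1, Ifit3, Ifit3b, Oas1a and Bst2 held 2 matches and Isg15 held 3. Single matches were found for Rsad2, Oas3, Stat2, Ddx58, Eif2ak2 and Ifih1, and for Trim30a in both of its windows. In Ifit1 the matches began 104 and 85 bases before the start. In both Ifit3 and its neighbouring near-copy Ifit3b, they began 34 bases apart. The counts of Ifit3 and Ifit3b are uncertain for that reason, because reads of near-identical genes may be split or dropped in counting. The windows of Ifit2, Irf7, Irf9, Oasl2, Samd9l and Trim25 did not hold these letters. A match describes the sequence and is not a measured binding site.

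After barcodes with fewer than 500 genes or with 10% or more mitochondrial UMIs were removed, 3715 of 7542, 4642 of 4674, 2722 of 2756 and 3235 of 3265 remained at days 0, 1, 2 and 5. At day 0, 3760 barcodes had fewer than 500 genes, against 1, 2 and 0 on the later days. Comparisons with day 0 thus set a selected part of that library against nearly all of the others. Median depth was 1057 UMIs at day 0 and 3608, 4184 and 3897 at days 1, 2 and 5, so day 0 is the least precise library. Pairs of libraries shared 10 to 22 retained barcode sequences. Of the genes behind the sort, Ptprc (CD45) was at 132 to 235 CPM (the UMIs of a gene as a share of all UMIs of the library, in the usual scaling of counts) and Itgam (CD11b) at 116 to 237, Csf1r was detected in 62.7% to 92.7% of barcodes, and Ly6g was listed in no library. Doublets were not called.

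The members summed to 477, 756, 811 and 992 CPM at days 0, 1, 2 and 5, with intervals of 457 to 498, 744 to 769, 795 to 827 and 976 to 1008. The level was higher at each later day, with no overlap of the counting intervals. These intervals take each UMI as independent and are too narrow where member UMIs cluster in barcodes. Of 1000 UMIs drawn per barcode, the variance of member UMIs was 1.49, 2.09 and 2.07 times the mean at days 1, 2 and 5. Whether days 1 and 2 stay apart with that spread was not tested. Between libraries of like depth, day 5 was 1.31-fold above day 1 (1.28 to 1.34) and day 2 was 1.07-fold above day 1 (1.04 to 1.10). Day 5 was 2.08-fold above day 0 (1.99 to 2.18). Bst2, Lgals3bp, Sp100 and Eif2ak2 are also present without interferon, and without them the 4 levels were 299, 507, 529 and 695 CPM, and day 5 was 1.37-fold above day 1.

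Called at 2-fold among members of at least 10 CPM in either library, 5 of 28 were higher and 0 lower at day 5 than at day 1, where 3.71% of 7515 genes were higher and 1.25% lower. The 5 were Zbp1, Ifit1, Irf7, Isg15 and Usp18. The median member ratio was 1.32, and that of all genes 0.96. Against day 2, 5 of 29 members were higher at day 5 and 0 lower (all genes: 4.11% and 1.07%), and these were the same 5. A member that reached 10 CPM only where it was high had to differ. Where the mean of both libraries had to reach 10 CPM, a filter chosen after seeing the data, 3 of 25 were higher against day 1 (all genes: 3.18%), without Ifit1 and Usp18, and 4 of 28 against day 2 (3.45%), without Ifit1. Between days 1 and 2, 0 of 27 members were past 2-fold in either direction (all genes: 0.0958% higher and 0.0685% lower). Against day 0, 6 of 25 members were higher at day 1 (all genes: 2.57%), 7 of 26 at day 2 (2.77%) and 14 of 27 at day 5 (6.43%), with 0 lower each time (all genes: 2.41%, 2.98% and 3.34%). By the mean of both libraries these counts were 2 of 16 (all genes: 2.03%), 3 of 17 (2.24%) and 11 of 23 (5.41%). The 3 comparisons with day 0 share its shallow library, and only 96 of its barcodes had 1000 genes or more. With that stricter minimum the day 0 sum was 613 CPM and the median log2 ratio of the members was 0.11 at day 1 and 0.55 at day 5 against day 0, in place of 0.58 and 1.10, and 1, 2 and 1 members were lower at days 1, 2 and 5. With the mean of each barcode's CPM, 23 members in place of 14 were higher at day 5 than at day 0. The share of all genes was not taken under either setting, so these changed counts cannot be read as particular to the members.

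**Figure D1:**
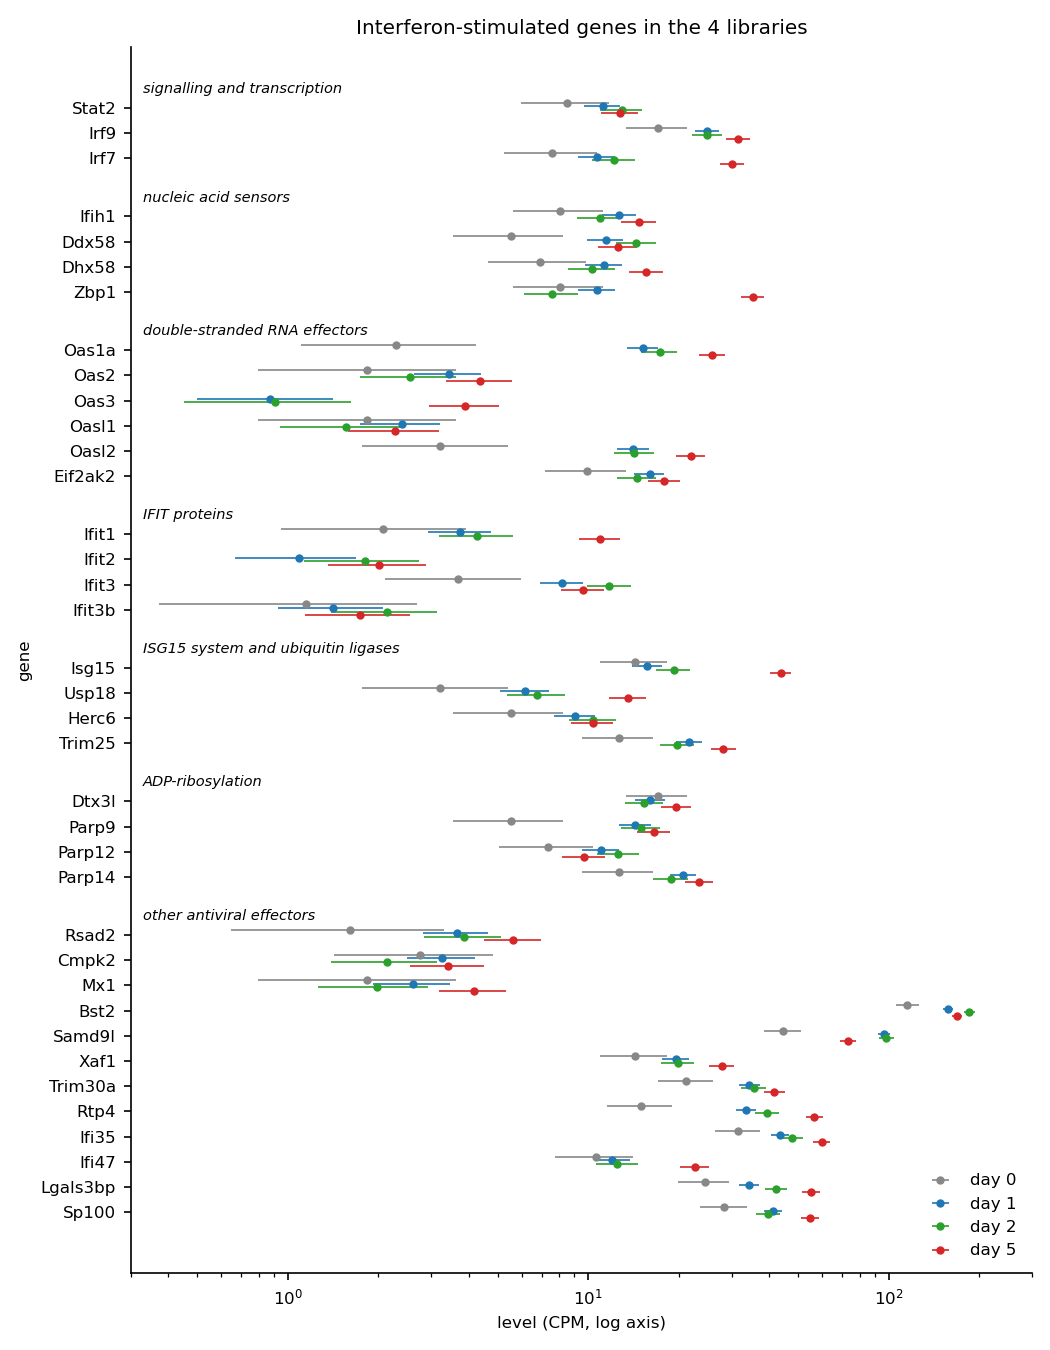
Level of each listed gene in CPM (log axis) in the libraries of days 0, 1, 2 and 5, grouped by role; bars are 95% Poisson intervals of the counts. Zbp1, Irf7, Isg15 and Ifit1 stand to the right at day 5, while Samd9l at day 5 stands between day 0 and days 1 and 2.

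Among the signalling members, Irf7, the factor that amplifies interferon production, was at 7.59, 10.7, 12.2 and 30.1 CPM at days 0, 1, 2 and 5. It was high at day 5 alone, 2.82-fold above day 1 (2.38 to 3.36) and 2.48-fold above day 2 (2.05 to 3.0). Irf9, the DNA-binding partner of activated Stat2, was at 17.0, 24.9, 24.8 and 31.5 CPM. Stat2 was at 8.51, 11.2, 12.9 and 12.8 CPM, and its days 1, 2 and 5 could not be told apart by their counts (day 5 against day 1, 1.14-fold, 0.93 to 1.40). Neither Irf9 nor Stat2 was past 2-fold between any pair of days.

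Among the nucleic acid sensors, Zbp1 had the largest ratio of the members tested at day 5 against day 1 and against day 2. Zbp1, which binds Z-form nucleic acid and can start necroptosis, was at 8.05, 10.7, 7.57 and 35.3 CPM, or 3.31-fold above day 1 (2.80 to 3.92) and 4.67-fold above day 2 (3.73 to 5.89). The cytosolic RNA sensors did not share that step. Ddx58 (RIG-I) was at 5.52, 11.4, 14.5 and 12.5 CPM, 2.07-fold, 2.62-fold and 2.27-fold above day 0 and 1.10-fold above day 1 at day 5 (0.90 to 1.34). Dhx58, a regulator of the RNA sensors, was at 6.90, 11.3, 10.3 and 15.6 CPM and reached 2.26-fold above day 0 at day 5 (1.54 to 3.42). Ifih1, a sensor of long double-stranded RNA, was at 8.05, 12.7, 10.9 and 14.8 CPM and was not past 2-fold in any comparison.

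The oligoadenylate synthetases answer double-stranded RNA by making the messenger that switches on RNase L. Oas1a was at 2.3, 15.2, 17.3 and 25.8 CPM, which was 6.60-fold, 7.51-fold and 11.2-fold above day 0, where it had 10 UMIs. Oasl2 was at 3.22, 14.1, 14.2 and 21.9 CPM, 4.38-fold above day 0 at day 1 (2.56 to 8.12) and 6.81-fold at day 5 (4.00 to 12.6). These were the steepest steps between day 0 and day 1 among the members tested. In barcodes of 1000 genes or more the ratios of Oas1a to day 0 were 1.37, 1.52 and 2.28, and those of Oasl2 were 3.57, 3.65 and 5.69. Oas2 and Oasl1 stayed under 5 CPM in every library. Oas3 was at 0.87, 0.90 and 3.89 CPM at days 1, 2 and 5. Eif2ak2, the kinase that stops translation on double-stranded RNA, was at 9.89, 16.0, 14.6 and 17.9 CPM.

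The IFIT proteins bind viral RNA and were among the scarcest members. Ifit1 was at 2.07, 3.76, 4.28 and 10.9 CPM, 2.91-fold above day 1 at day 5 (2.19 to 3.92). Ifit3 was at 3.68, 8.16, 11.8 and 9.60 CPM, highest at day 2 and 3.20-fold above day 0 there (1.90 to 5.74). At day 2, 48 of its 143 UMIs lay in 10 of 2722 barcodes, those with 5 or more UMIs of other members among 500 drawn. Outside barcodes called in this way, Ifit3 was near level, at 7.47, 7.84 and 7.74 CPM at days 1, 2 and 5. Its day 5 and day 1 values did not differ beyond their counts (1.18-fold, 0.93 to 1.49), and both were under the 10 CPM needed for a call. Ifit2 was at 1.09, 1.81 and 2.01 CPM at days 1, 2 and 5, and Ifit3b at 1.15 to 2.14 CPM over the 4 libraries.

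Isg15, the ubiquitin-like modifier that is joined to other proteins, was at 14.3, 15.7, 19.2 and 43.7 CPM. It was 2.78-fold above day 1 (2.41 to 3.20) and 2.27-fold above day 2 (1.95 to 2.65) at day 5, with days 0 and 1 inseparable (1.10-fold, 0.84 to 1.48). Usp18, the protease that removes Isg15 and dampens receptor signalling, was at 3.22, 6.15, 6.74 and 13.6 CPM, 2.20-fold above day 1 at day 5 (1.74 to 2.80). Of the ligases, Trim25 was at 12.7, 21.6, 19.8 and 28.2 CPM and was 2.23-fold above day 0 at day 5 (1.68 to 3.01). Herc6 stayed at 5.52 to 10.4 CPM. The modifier and its protease were thus higher together at day 5, whereas neither ligase was past 2-fold against day 1 or day 2.

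The ADP-ribosylation members were near level after day 0. Parp9 was at 5.52, 14.3, 15.0 and 16.6 CPM, 2.59-fold above day 0 at day 1 (1.70 to 4.12). Its partner ligase Dtx3l was at 17.0, 16.1, 15.4 and 19.6 CPM, and at day 1 and day 2 its ratio to day 0 was below 1 with an interval across 1. Parp12 and Parp14 stayed at 7.36 to 12.6 CPM and 12.7 to 23.4 CPM. These 4 genes summed to 62.1, 61.8 and 69.2 CPM at days 1, 2 and 5.

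Among the remaining effectors, Samd9l, an interferon-induced restriction factor of poxviruses, ran against the set. It was at 44.4, 96.8, 98.3 and 73.3 CPM, 2.18-fold above day 0 at day 1 (1.88 to 2.54) and 0.76-fold of day 1 at day 5 (0.70 to 0.82). It was 1 of 2 members tested with a day 5 ratio to day 1 below 1; the other was Parp12 (0.88, 0.70 to 1.09). Bst2, the tetherin that holds virions at the cell surface, was at 115, 158, 186 and 169 CPM and was highest at day 2. Rtp4, an inhibitor of flavivirus replication, was at 15.0, 33.5, 39.4 and 56.6 CPM, 3.79-fold above day 0 at day 5 (2.94 to 4.95). Ifi47, a GTPase of the immunity-related family, was at 10.6, 12.03, 12.5 and 22.6 CPM, 1.88-fold above day 1 at day 5 (1.58 to 2.24).

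Lgals3bp, a secreted glycoprotein, was at 24.4, 34.3, 42.2 and 55.2 CPM and was 2.27-fold above day 0 at day 5 (1.85 to 2.80). Ifi35 was at 31.5, 43.5, 47.7 and 59.9 CPM, and Sp100, a nuclear body protein, at 28.3, 41.3, 39.6 and 54.8 CPM. Both were highest at day 5 without passing 2-fold. Xaf1 (14.3 to 27.8 CPM) and Trim30a (21.2 to 41.7 CPM) were likewise lowest at day 0 and highest at day 5. Rsad2 (viperin), its neighbour Cmpk2 and the dynamin-like GTPase Mx1 stayed under 6 CPM in every library.

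To ask whether the members sat in few cells or many, 1000 UMIs were drawn from each barcode that held as many. Barcodes with 5 or more member UMIs of 1000 are called ISG-high here, a threshold chosen after the data were seen. They were 0 of 2206 barcodes at day 0, which allows a share of up to 0.136% by 3 counts of the total (Clopper-Pearson upper bound 0.167%), with 1509 shallower barcodes left out and none left out on later days. They were 49 of 4642 at day 1 (1.06%, 0.78% to 1.39%), 38 of 2722 at day 2 (1.40%, 0.99% to 1.91%) and 88 of 3235 at day 5 (2.72%, 2.19% to 3.34%). The share at day 5 lay above those of days 1 and 2, whose intervals overlap. Without thinning, barcodes with at least 0.5% member UMIs were 0.108%, 0.582%, 0.808% and 1.36% at days 0, 1, 2 and 5.

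A stricter call, 5 or more of 500 drawn UMIs, found 0, 10, 10 and 10 barcodes at days 0, 1, 2 and 5 (0%, 0.215%, 0.367% and 0.309%). The expected share over all draws was 0.0345%, 0.217%, 0.332% and 0.600%, highest at day 5, and without the 5% of barcodes with the most UMIs the day 5 share was 0.618%. The median depth of ISG-high barcodes was 3469, 3354 and 3715 UMIs at days 1, 2 and 5, below the 3608, 4196 and 3900 of the others.

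**Figure D2:**
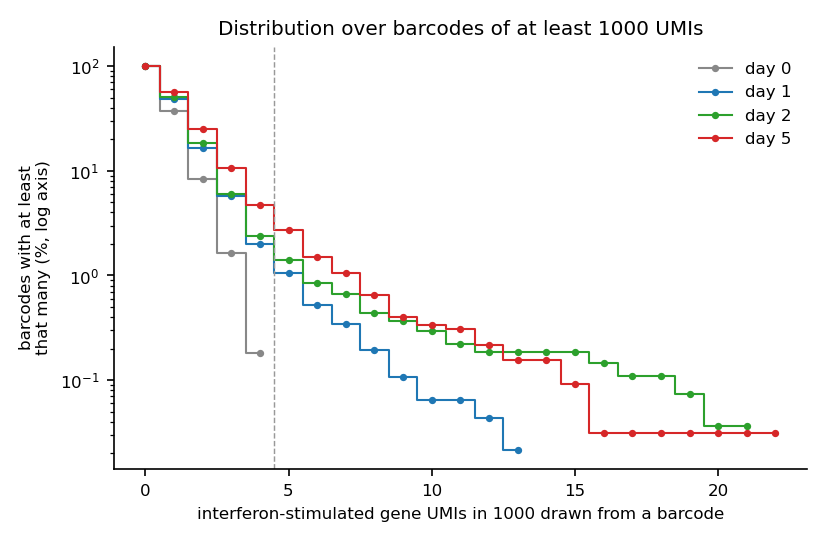
Share of barcodes (%, log axis) with at least the given number of interferon-stimulated gene UMIs among 1000 drawn, by day; the dashed line marks the ISG-high threshold. Day 5 lies above the other days at the threshold (2.72%), and the day 2 and day 5 tails reach 21 and 22 UMIs against 13 at day 1 and 4 at day 0.

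ISG-high barcodes held many members at once, but they were selected for their summed member UMIs. That selection by itself raises the number of members found in them. A median of 10, 10.5 and 12 different members had a UMI in them at days 1, 2 and 5, against 2, 2 and 3 in the other barcodes. The member with most UMIs supplied a median of 21.4%, 19.6% and 20% of a barcode's member UMIs. In the most extreme barcodes the count reached 60, 76 and 74 member UMIs. Mean member UMIs of 1000 were 0.757, 0.831 and 1.04 at days 1, 2 and 5, with a variance of 1.49, 2.09 and 2.07 times the mean; at day 0 the mean was 0.476 and that ratio 1.03.

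Each member was then compared between ISG-high and other barcodes called from the other members alone, so that a gene did not help to select its own cells. At day 5, 35 of 37 members were at least 2-fold higher in ISG-high barcodes and the intervals of all 37 lay above 1, with a median of 5.08-fold. At days 1 and 2, 33 of 36 and 35 of 37 were at least 2-fold higher. The 36 leave out Oas2, which had 0 UMIs in ISG-high barcodes at day 1. No minimum level was set for these member counts. Of all genes, 7.7%, 11.3% and 4.45% were at least 2-fold higher at days 1, 2 and 5, in barcodes called from all members and at 20 CPM or more on 1 side, and 2.55%, 4.00% and 1.77% of those at 20 CPM or more over both sides. With the call from all members, in which a gene helps to select its own cells, fewer members reached 20 CPM over both sides. Of those, 10 of 10, 7 of 8 and 16 of 17 were at least 2-fold higher at days 1, 2 and 5. These counts describe cells selected for related genes and are no test.

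The members fell on a wide scale by how far they were confined to these few cells. At day 5, Ifit1 had 85 of its 163 UMIs (52.1%) in 84 barcodes that made up 2.60% of the library, or 237 CPM against 5.36 in the others (44.2-fold, 32.1 to 60.9). Ifit3 had 51.7% of its 143 UMIs there, Ifit3b 57.7% of 26 and Ifit2 63.3% of 30. Rsad2 followed with 41.7%, Cmpk2 with 39.2%, Oasl1 with 38.2% and Mx1 with 37.1%. Of these, Ifit1, Ifit3, Ifit3b and Rsad2 carry the capitals in the windows printed above, while Ifit2, Cmpk2 and Oasl1 have windows without the letters.

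Isg15 had 29.6% of its UMIs in ISG-high barcodes at day 5, 549 CPM against 31.5 (17.4-fold, 14.7 to 20.7), and Irf7 had 22.7%, 311 against 23.8 (13.1-fold, 10.4 to 16.4). Irf7 was in this upper range although its window lacked the letters searched. Zbp1 had 10.8% of its UMIs there (5.53-fold, 4.13 to 7.30), so most of its day 5 UMIs lay outside ISG-high barcodes. At the even end, Bst2 had 2.98% of its UMIs in 2.16% of barcodes (1.54-fold, 1.21 to 1.93), although its window held 2 matches, and Trim25 had 4.29% (1.77-fold, 1.04 to 2.84). Samd9l (2.78-fold), Parp9 (2.84-fold), Lgals3bp (2.87-fold) and Irf9 (2.94-fold) were also at the low end. Members with the letters had a median ratio of 6.05 at day 5 (13 genes, 1.54 to 52.9) and those without of 3.98 (16 genes, 1.77 to 67.0), and the ranges overlap.

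At the earlier days Oas3 had 43.8% of its 16 UMIs (day 1) and 36.4% of 11 (day 2) in ISG-high barcodes, against 15.5% of 58 at day 5. Oasl1 had 6.82% of 44 and 5.26% of 19 UMIs there, against 38.2% of 34 at day 5. The intervals of its ratios overlap between days (1.45 to 22.9, 0.12 to 30.9 and 11.3 to 51.2). A changed order of the members cannot be read from Oasl1. Ifit3 was 53.6-fold higher in ISG-high barcodes at day 1 (37.3 to 76.3) and 63.0-fold at day 2 (44.3 to 88.9). Irf7 was 36.6-fold and 27.0-fold higher, and Isg15 27.6-fold and 34.3-fold. The intervals of Trim25, Parp12, Irf9, Parp14 and Herc6 reached below 1 at day 1, where Oas2 had none of its 63 UMIs in such barcodes. The largest ratio, 299-fold for Ifit2 at day 2, rested on 17 against 5 UMIs.

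**Figure D3:**
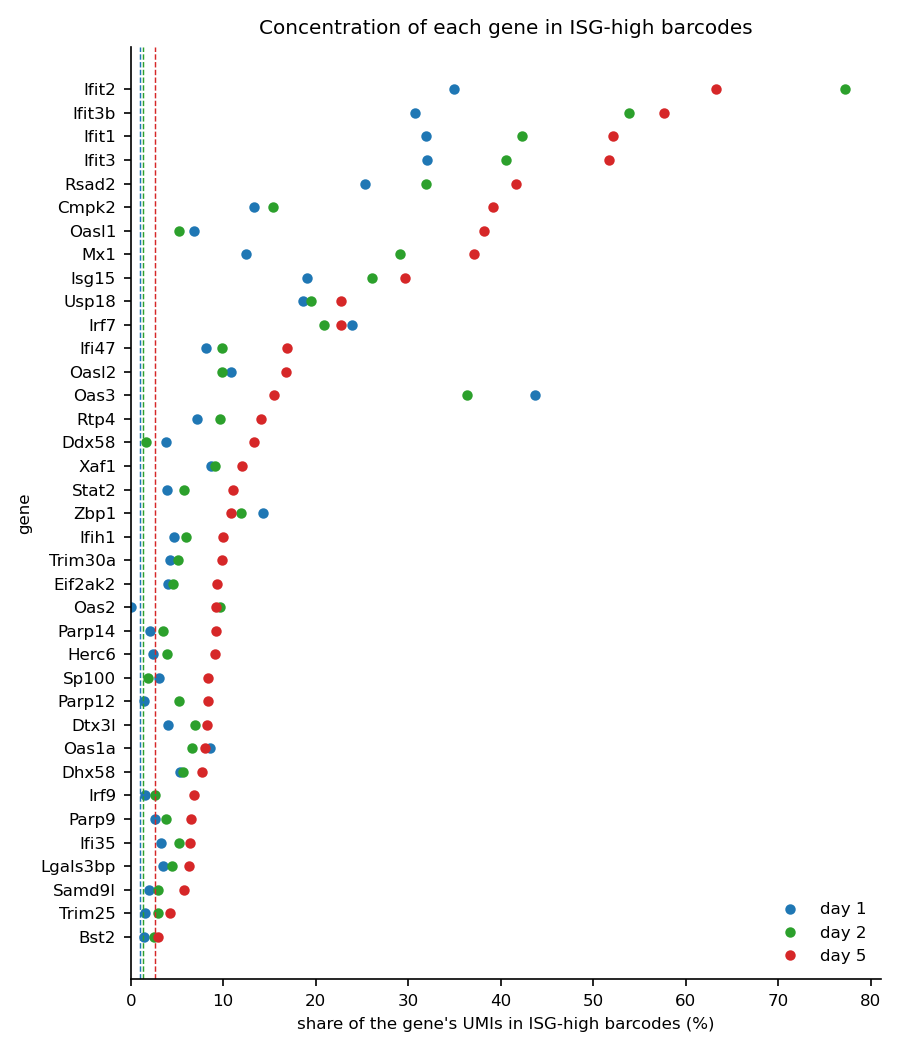
Percentage of each gene's UMIs found in ISG-high barcodes, called from the other genes of the set, at days 1, 2 and 5; dashed lines give the median percentage of barcodes that were ISG-high. The IFIT genes reach 51.7% to 63.3% at day 5, while Bst2 and Trim25 lie near the lines.

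Genes outside the set were examined in the same ISG-high barcodes. A separate list held 41 other interferon-stimulated genes and was also chosen with earlier results of these data known. At days 1, 2 and 5, 31 of 36, 26 of 31 and 31 of 35 tested were at least 2-fold higher. Of those at 20 CPM or more over both sides, 16, 17 and 16 of 20 were. Slfn5, of the Schlafen growth regulators, was 9.33-fold, 13.4-fold and 6.58-fold higher and was found in 27 of 49, 27 of 38 and 55 of 88 ISG-high barcodes. Phf11d was 14.9-fold and 9.86-fold higher at days 2 and 5. Of genes usually tied to interferon gamma, 4 of 5, 4 of 5 and 5 of 5 tested were higher. At days 1 and 2 only 1 gene of this list reached 20 CPM over both sides, and it was not 2-fold higher (0 of 1 each day). At day 5, 0 genes reached it, so the calls rest on genes that passed through the ISG-high side. The guanylate-binding gene Gbp2 was 11.7-fold and 10.1-fold higher at days 2 and 5.

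Some leading genes came from 1 or a few cells. At day 5 Cxcl10, a chemokine that draws T cells, led the ranking at 187 against 8.33 CPM, with its 70 UMIs in 9 of 88 barcodes and 22 in 1 of them. Myoc had all 29 of its UMIs there in 1 barcode, and Hspb1 had 38 of 40 in 1. At day 2 Fabp4 led with 47 UMIs, all in 1 barcode, and Sparcl1 had 10, also in 1. Ly6a, by contrast, was in 18 of 88 barcodes at day 5 (11.2-fold), and Ifit1bl1 had 13 of its 18 UMIs in 7. Among genes that were lower at day 5, the gelatinase Mmp9 was at 2.67 against 157 CPM (1 UMI) and the chemokine Ccl17 at 5.34 against 205 (2 UMIs). Atp6v0d2 had 0 UMIs in ISG-high barcodes and was at least 7.27-fold lower.

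Markers of cell types were read in ISG-high barcodes as well. At day 1 the 7 monocyte markers summed to 1174 CPM in ISG-high and 186 in other barcodes. The first 3 genes of the ranking were Ms4a4c, from the list of other interferon-stimulated genes, and the monocyte markers Ly6c2 and Plac8. Ly6c2 was in 5 of 49 barcodes and Plac8 in 6. At day 2 the 7 monocyte markers were at 51.2 against 212 CPM, and at day 5 at 2663 against 1259. The MHC class II markers were at 5252 against 15457 CPM at day 1, 1922 against 11756 at day 2 and 25706 against 16771 at day 5. Interstitial macrophage markers were at 5477 against 6984 CPM, 9641 against 5424 and 2714 against 3504, and lining macrophage markers at 3770 against 3734, 4203 against 4347 and 2332 against 2408. The content of these markers in ISG-high barcodes thus differed between days, and its part in the result was not tested. The plasmacytoid dendritic cell list summed to 708 against 363 CPM at day 1, 789 against 391 at day 2 and 499 against 305 at day 5. Of this list, Bst2 is itself a member, which the sums include, and Cox6a2 was at 0 in ISG-high barcodes on all 3 days. Siglech, a defining gene of plasmacytoid dendritic cells, was 0.49-fold, 1.32-fold and 0.63-fold of the others, with intervals that included 1. Of 8 NK and T cell markers, 0 were listed at day 1 and 1 at each of days 2 and 5, at 0.41 and 1.28 CPM. It had 0 UMIs in ISG-high barcodes, which at so low a level says little about such cells. Of 8 endothelial genes, chosen after Fabp4 and Sparcl1 were seen, 3 or more UMIs were found in 0, 4, 9 and 9 barcodes, of which 0, 0, 1 and 2 were ISG-high. Without them the ISG-high shares were 0%, 1.06%, 1.36% and 2.67%. Fibroblast markers were at 22.0 against 121 CPM at day 1, 36.5 against 89.3 at day 2 and 280 against 90.3 at day 5, of which Dcn made up 246 CPM; their part in the result was not tested.

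Genes upstream of the set were read from separate lists. No interferon ligand was listed in any library (0 of 21 genes searched). Of 8 receptor and kinase genes, 0 were past 2-fold between days 1 and 5. Ifnar1 was at 36.8, 48.8, 50.7 and 54.5 CPM, and Ifnar2 at 89.9, 78.4, 90.6 and 99.5 CPM at days 0, 1, 2 and 5. Myd88, the Toll-like receptor adaptor, was the 1 gene of 8 tested sensors and adaptors past 2-fold, at 23.6 CPM at day 1 and 47.4 at day 5. The list as a whole was lower at day 5. Its median log2 ratio to day 1 was -0.36 over the 8 tested, and its 15 genes summed to 682 CPM at day 1 and 572 at day 5. Of the other interferon-stimulated genes, 8 of 32 were at least 2-fold higher at day 5 than at day 1 and 0 lower (all genes: 3.71% and 1.25%). Where the mean of both days had to reach 10 CPM, 6 of 30 were higher (all genes: 3.18%). Ifitm1, which restricts virus entry, was at 5.29, 1.96, 0.74 and 452 CPM, and Ms4a4c at 5.29, 19.7, 15.7 and 206. The 7 monocyte markers summed to 117, 195, 210 and 1295 CPM over the same libraries, and their part in these values was not tested.

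Marker genes were used to divide the barcodes of each library by whether they held 1 or more UMIs: Sparc (a lining macrophage marker), Cd163 (a resident tissue macrophage marker), H2-Aa (an MHC class II chain), Plac8 (a monocyte marker) and TdTomato. The statuses overlap, and free RNA and depth can add positives. Among barcodes with 2 or more Sparc UMIs, Plac8 was found in 1.17%, 0.43%, 0.66% and 5.07% at days 0, 1, 2 and 5, and TdTomato in 71.6% to 92.3%. Among barcodes with 2 or more Plac8 UMIs, TdTomato was found in 27.9%, 32.4% and 23.8% at days 1, 2 and 5.

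Plac8 status separated the summed level most. Plac8-positive barcodes were 32 of 3715 at day 0, 59 of 4642 at day 1, 52 of 2722 at day 2 and 826 of 3235 at day 5 (25.5%). Their summed level was 957 CPM at day 0 against 473 in Plac8-negative barcodes, 2127 against 738 at day 1, 1105 against 805 at day 2 and 1403 against 853 at day 5. The ratio was 2.02 (1.42 to 2.80), 2.88 (2.63 to 3.15), 1.37 (1.21 to 1.55) and 1.64 (1.59 to 1.70). The positive barcodes were above the negative in every library, and at day 5 the median depths were 3894 and 3897 UMIs. In Plac8-negative barcodes alone the summed level was 738 CPM at day 1 and 853 at day 5 (1.16-fold, 1.12 to 1.19), against 1.31-fold in all barcodes.

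**Figure D4:**
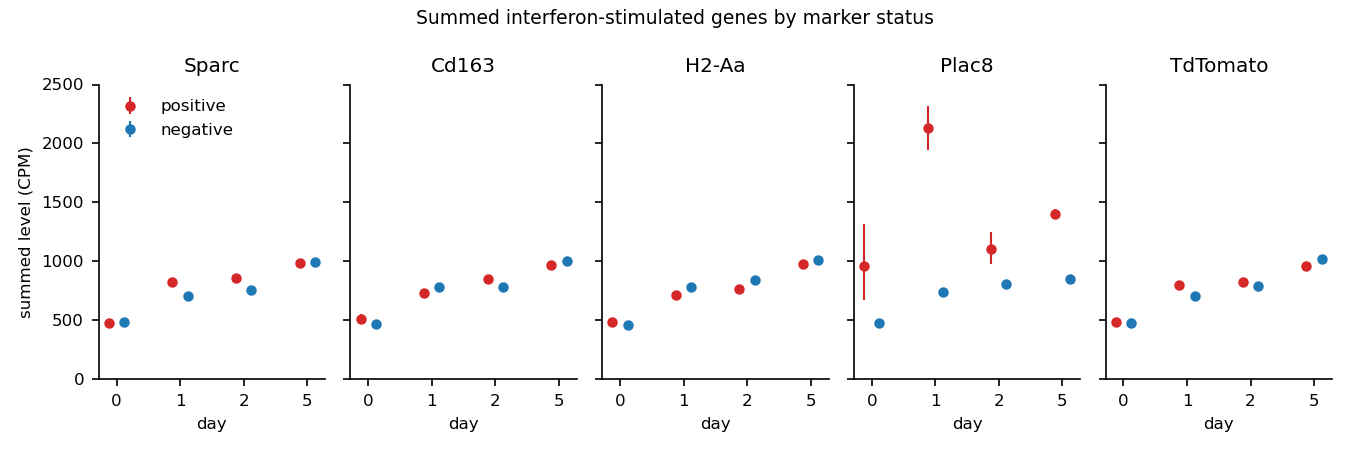
Summed level of the interferon-stimulated genes in CPM by day in barcodes with (red) and without (blue) a UMI of each marker; bars are 95% Poisson intervals. Plac8-positive barcodes lie above Plac8-negative ones on each day, at 1403 against 853 CPM at day 5, and the other 4 markers separate the barcodes by at most 1.17-fold.

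Plac8-positive barcodes also held more ISG-high ones at day 5. These were 42 of 826 (5.08%, 3.69% to 6.81%) against 46 of 2409 Plac8-negative (1.91%, 1.40% to 2.54%). Plac8-positive barcodes were thus 47.7% of the ISG-high and 25.5% of all barcodes at day 5. At day 1 the shares were 6 of 59 (10.2%, 3.82% to 20.8%) and 43 of 4583 (0.94%, 0.68% to 1.26%). At day 2 the single ISG-high barcode among 52 (1.92%, 0.05% to 10.3%) could not be told apart from 37 of 2670 (1.39%). This call was among 16 settings tried, and most of the others were variants of the stricter call. That call found 10 barcodes at each of days 1, 2 and 5, of which 2, 0 and 7 were Plac8-positive. Over all settings the positive share was above the negative at days 1 and 5, 16 of 16 each, and at day 2 in 3 of 16. The settings re-cut the same library of each day, so these counts are no repeated support for the shares above.

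Of 30 members tested between Plac8-positive and Plac8-negative barcodes at day 5, 12 were at least 2-fold higher and 0 lower, where 4.53% of all genes were higher and 11.3% lower. Of those at 10 CPM or more over all barcodes of the library, without Oas3 and Ifit3 among others, 10 of 27 were higher (all genes: 3.99%). Zbp1 was at 102 against 12.6 CPM (8.13-fold, 6.68 to 9.93), Irf7 at 79.7 against 13.3 (5.99-fold, 4.91 to 7.35) and Isg15 at 95.4 against 26.2 (3.65-fold, 3.12 to 4.27). Oas3 (6.55-fold), Dhx58 (3.0-fold), Ifit1 (2.77-fold), Ifi47 (2.73-fold), Sp100 (2.65-fold), Oas1a (2.36-fold), Ifit3 (2.32-fold), Rtp4 (2.15-fold) and Xaf1 (2.15-fold) made up the rest. Zbp1, Irf7, Isg15 and Ifit1 are thus 4 of the 5 members past 2-fold at day 5 against day 1. Usp18, although higher at day 5, was nearly even by Plac8 status (15.4 against 12.9 CPM, 1.19-fold, 0.86 to 1.62). Samd9l was at 51.9 against 80.6 CPM (0.64-fold, 0.55 to 0.75), Parp12 at 0.62-fold (0.39 to 0.96), Lgals3bp at 0.76-fold (0.63 to 0.90) and Bst2 at 0.87-fold (0.79 to 0.95). Within the day 5 library, members therefore differed in direction by Plac8 status.

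**Figure D5:**
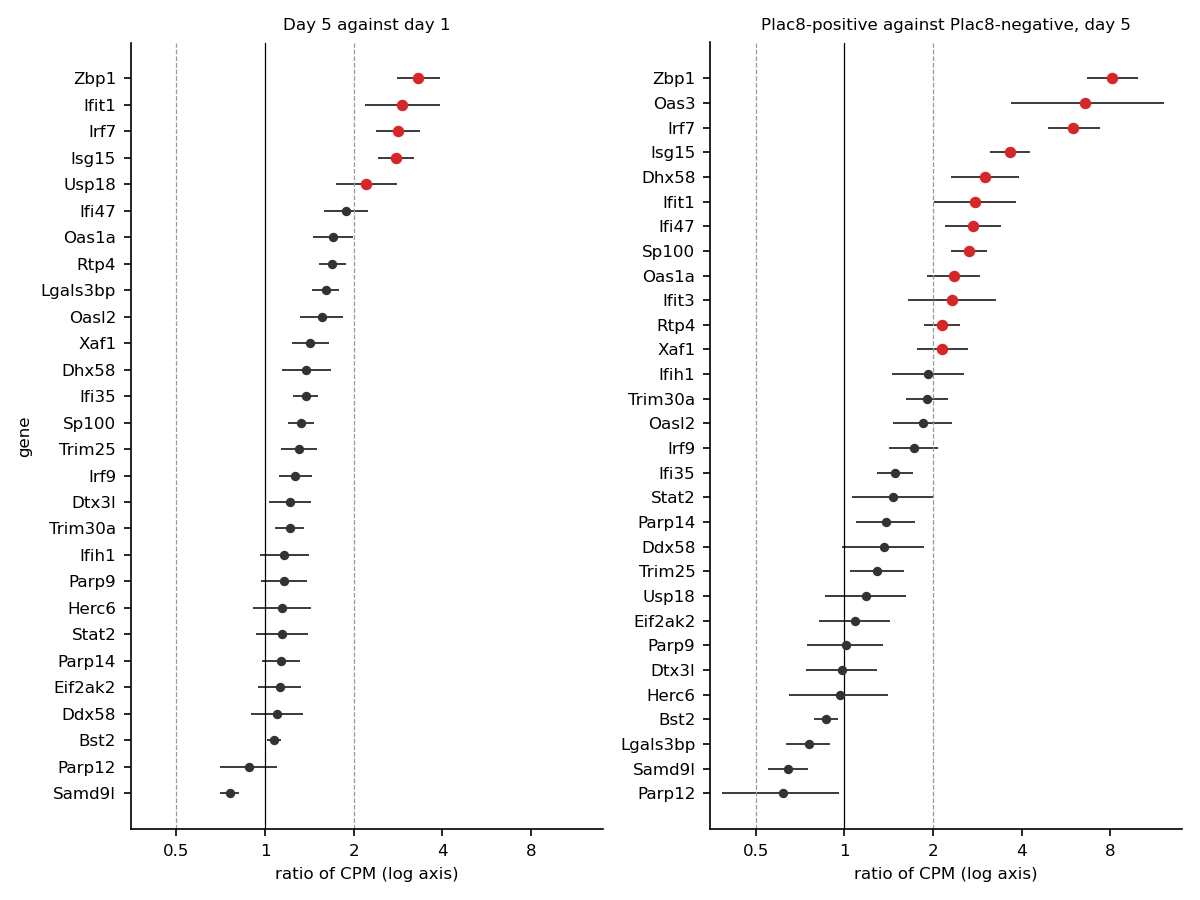
Ratio of CPM (log axis) with 95% interval for each gene tested, at day 5 against day 1 (left) and in Plac8-positive against Plac8-negative barcodes at day 5 (right); red points are at least 2-fold higher, and dashed lines mark 2-fold either way. Zbp1, Irf7, Isg15 and Ifit1 are past 2-fold in both panels, and Samd9l is below 1 in both.

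At day 0, on 32 Plac8-positive barcodes, 14 of 18 members tested were called at least 2-fold higher and 0 lower. Of all genes, 45.1% were called higher there and 4.07% lower. At 10 CPM or more over all barcodes of the library, 10 of 14 members and 39.4% of all genes were called higher. A gene with 0 UMIs in the 32 barcodes was set to 3 counts, which among so few UMIs can be enough to be called higher. These day 0 counts are therefore no measure of genes that were raised. At day 1, on 59 barcodes, 27 of 34 members tested were at least 2-fold higher and 0 lower (all genes: 9.19% and 13.2%). Of these, 9 were under 10 CPM over the whole library; without them 18 of 25 were higher (all genes: 4.84%). Zbp1 was at 187 against 8.33 CPM (22.5-fold, 15.8 to 31.6), Irf7 at 137 against 8.99 (15.3-fold, 10.2 to 22.3) and Isg15 at 196 against 13.3 (14.7-fold, 10.5 to 20.1). At day 2, on 52 barcodes, 7 of 27 were higher and 2 lower (all genes: 9.11% and 13.5%), or 6 of 26 higher (4.48%) by the whole-library filter. Zbp1 led there too at 56.3 against 6.62 CPM (8.50-fold, 4.34 to 15.4), while Isg15 was at 21.7 against 19.2 (1.13-fold, 0.36 to 2.67). The 2 lower, Parp12 and Herc6, rested on 1 UMI each. Zbp1 was the member most biased to Plac8-positive barcodes at days 2 and 5, and at day 1 only Oas3, on 4 UMIs, had a larger ratio.

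Within Plac8-negative barcodes, 1 of 27 members was at least 2-fold higher at day 5 than at day 1 and 0 lower (all genes: 2.47% and 0.387%). That member was Usp18, at 12.9 against 5.79 CPM (2.24-fold, 1.73 to 2.90); its mean of both days was under 10 CPM, and 0 of 25 members at or above it were past 2-fold (all genes: 2.04% higher). Isg15 was at 26.2 against 13.3 (1.96-fold, 1.65 to 2.33), Zbp1 at 12.6 against 8.33 (1.51-fold, 1.19 to 1.91) and Irf7 at 13.3 against 8.99 (1.48-fold, 1.18 to 1.86). Their ratios were smaller than the 2.78, 3.31 and 2.82 of all barcodes. Within Plac8-positive barcodes 11 of 34 members were at least 2-fold lower at day 5 and 0 higher (all genes: 14.6% and 8.61%; 10 of 33 and 12.5% by the mean of both days), and the sum was 0.66-fold of day 1 (0.60 to 0.72). Day 1 has 59 such barcodes, so their makeup and the level per barcode cannot be told apart.

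TdTomato status made little difference to the sum. TdTomato-positive barcodes were at 481, 799, 821 and 960 CPM and negative ones at 472, 706, 792 and 1019 at days 0, 1, 2 and 5, with medians of 4338 and 3649 UMIs at day 5. The positive were 1.13-fold above the negative at day 1 (1.10 to 1.17) and 0.94-fold at day 5 (0.91 to 0.97). At day 5 0 of 29 members were past 2-fold in either direction (all genes: 3.08% higher and 2.64% lower). Isg15 (29.6 against 55.5 CPM, 0.53-fold, 0.45 to 0.63), Zbp1 (0.57-fold), Irf7 (0.60-fold) and Sp100 (0.63-fold) were lowest in positive barcodes. Samd9l (1.53-fold, 1.36 to 1.73) and Bst2 (1.35-fold, 1.25 to 1.46) were highest. ISG-high barcodes were 24 of 1323 positive (1.81%, 1.17% to 2.69%) and 64 of 1912 negative (3.35%, 2.59% to 4.25%).

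Between day 1 and day 5 the summed level was 1.20-fold higher in TdTomato-positive (1.16 to 1.24) and 1.44-fold in TdTomato-negative barcodes (1.40 to 1.49). Of 27 members 3 were at least 2-fold higher in the positive (Zbp1 2.39, Isg15 2.31 and Usp18 2.02) and 0 lower, where 2.41% of all genes were higher and 0.309% lower; by the mean of both days, 2 of 26 were higher (all genes: 1.83%). Of 28 members 7 were in the negative (Zbp1 4.02, Irf7 3.73, Isg15 2.89, Ifit1 2.69, Oas1a 2.56, Usp18 2.27 and Rtp4 2.06) and 0 lower, where 4.89% of all genes were higher and 5.29% lower, or 6 of 25 higher (4.41%) by the mean of both days. Both markers together gave 4 levels at day 5: 1286 CPM in 212 barcodes positive for Plac8 and TdTomato, 1460 in 614 positive for Plac8 alone, 886 in 1111 positive for TdTomato alone and 820 in 1298 negative for both. Plac8-positive barcodes were above Plac8-negative ones with or without TdTomato.

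Sparc, Cd163 and H2-Aa separated the sum by at most 1.17-fold on any day. Sparc-positive barcodes were at 822 against 704 CPM at day 1 (1.17-fold, 1.13 to 1.21) and at 984 against 995 at day 5 (0.99-fold, 0.95 to 1.02). Cd163-positive barcodes were at 968 against 999.5 CPM at day 5, and H2-Aa-positive ones at 977 against 1009. The even sum at day 5 held unlike members. Isg15 was at 20.5 CPM in Sparc-positive and 53.6 in Sparc-negative barcodes (0.38-fold, 0.30 to 0.48) and Zbp1 at 17.7 against 42.8 (0.42-fold, 0.32 to 0.53), 2 of 28 members at least 2-fold lower where 5.19% of all genes were lower and 6.73% higher. Samd9l was at 110 against 57.8 CPM (1.90-fold, 1.68 to 2.15) and Bst2 at 230 against 143 (1.61-fold, 1.49 to 1.75) in the other direction. By Cd163, Zbp1 (0.39-fold) and Isg15 (0.49-fold) were again the 2 of 28 lower (all genes: 2.91% lower, 2.59% higher), and by H2-Aa 0 of 28 members were past 2-fold (all genes: 1.83% higher and 2.43% lower). ISG-high shares at day 5 were 2.40% and 2.84% in Sparc-positive and -negative barcodes, 2.15% and 2.90% by Cd163, and 3.15% and 2.32% by H2-Aa, with overlapping intervals in each pair.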

How the data were processed

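Each of 4 libraries was a table of raw UMI counts per gene and barcode, as the authors deposited it. Cell Ranger 2.1.0, Seurat 2.3, R 3.5.2 and the genome build mm10 are named in the submitters' processing notes, with no role or order. The deposited tables list genes found in at least 5 barcodes. Barcodes of at least 500 genes and under 10% mt- UMIs were retained. Counts were summed over barcodes and divided by all their UMIs (CPM). Ratios carry conditional exact Poisson 95% intervals, were called at 2 or 0.5, and were computed over every gene that both tables list and that reaches 10 CPM on 1 side (20 CPM for ISG-high against other barcodes). A count of 0 was set to 3 counts, which makes a bound. Shares were taken after thinning without replacement, with Clopper-Pearson intervals. Depth was 753 UMIs or more per retained barcode and 4347517 to 18373038 UMIs per library. The ratio code was tested on simulated independent Poisson counts, which hold no clustering of UMIs within barcodes. Members with 50 CPM in a library, or past 2-fold between days, have values for every library; of other genes, the first by ratio were named, leaving out mitochondrial, ribosomal, haemoglobin, sex-linked, antibody and predicted genes. The members and lists were chosen with earlier results of these data known. Alternatives were other filters, scalings, thresholds and draws. The tools were pandas 2.3.3, SciPy 1.17.1 and NumPy 2.4.6 under Python 3.11.15, with matplotlib 3.10.9 for figures.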

Additional observations from a re-analysis of the deposited data

Results flagged for a closer look

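The summed members at day 5 against day 1 went opposite ways by Plac8 status, 0.66-fold (0.60 to 0.72) in Plac8-positive barcodes and 1.16-fold (1.12 to 1.19) in Plac8-negative ones. Irf7 was at 0.58-fold in positive and 1.48-fold in negative barcodes, and Zbp1 at 0.55-fold and 1.51-fold. Isg15 was at 0.49-fold in positive and 1.96-fold in negative barcodes, and Bst2 at 0.69-fold and 1.11-fold. The counting intervals of these ratios lay on opposite sides of 1. The difference between the statuses was not tested, because each day is 1 library, and the day 1 side of the Plac8-positive values rests on 59 barcodes.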

How the results depend on the processing

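No paired analysis was possible because each day is 1 library with no replicate. The summed level was in the order day 0, 1, 2, 5 in all 6 alternatives. In barcodes of at least 1000 genes the day 0 sum was 613 CPM; members at least 2-fold lower against day 0 were 1, 2 and 1 at days 1, 2 and 5 in place of 0 (Oasl1 each time, on 3 UMIs at day 0, and Dtx3l at day 2), and the median log2 ratios were 0.11, 0.18 and 0.55 in place of 0.58, 0.66 and 1.10. With the mean of each barcode's CPM the sums were 829 and 1044 at days 2 and 5, the median log2 ratios to day 0 were 0.78 and 1.22, and 23 members in place of 14 were higher at day 5 than at day 0. The share of all genes was not taken under these alternatives. Where the mean of both libraries had to reach 10 CPM (chosen after seeing the data), members higher were 2 and 3 at days 1 and 2 against day 0, and 3 at day 5 against day 1, in place of 6, 7 and 5. With median-ratio scaling, which moved days 1 and 2 by 0.14 and 0.13 (log2) against day 0, the medians at days 1 and 2 were 0.44 and 0.54. Without the 4 broad members the sums were 299, 507, 529 and 695 CPM.

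The strict ISG-high call (5 of 500) gave shares in the order day 0, 1, 2, 5 in each alternative but the 200-gene minimum, whereas as reported day 2 was highest. Its share at day 5 was 0.60% under 5% mt- UMIs, 0.618% without the 5% of most UMIs, 0.600% over all draws and 0.620% without endothelial barcodes. At 4 of 500 the shares at days 1, 2 and 5 were 0.452%, 0.735% and 0.866% (H2-Aa-positive at day 5 1.09%, Plac8-positive 1.94%). At 8 of 500 they were 0.0215%, 0.0735% and 0.124% (H2-Aa-positive 0.128%). At 20 of 2000 they were 0.0747% and 0.125% at days 1 and 2, and unthinned at 1% or more 0.0646% at day 1. With the call used in the text, 5 of 1000 (chosen after seeing the data, as were 3 of 500, all draws and the endothelial list), they were 1.06%, 1.40% and 2.72%, and at day 5 2.40%, 2.15%, 3.15%, 5.08% and 1.81% in Sparc-, Cd163-, H2-Aa-, Plac8- and TdTomato-positive barcodes. At 3 of 500 they were 0.350%, 1.42%, 2.02% and 2.94% at days 0, 1, 2 and 5, and by the same markers 2.40%, 2.03%, 3.28%, 5.33% and 2.34%. With status at 2 UMIs the strict share of Sparc-positive barcodes at day 5 was 0%. Depth limits day 0 most, and scarce members such as Oas3 and Ifit2 rest on few UMIs in each library.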
